A study of Caenorhabditis elegans with 2 samples.

Results

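Nuclear pore and nuclear transport genes were examined for the binding of LIN-15B in whole L3 larvae of Caenorhabditis elegans. The members were all protein-coding genes of the WBcel235 annotation whose symbol begins with npp, ima, imb, ran or xpo followed by a number, which gave 40 of 19973 genes. They comprised 26 nucleoporins (npp), 6 importins (ima and imb), 3 exportins (xpo) and 5 genes of the Ran system (ran). The rule uses only the symbols, although it was proposed with earlier results of these data known. Chromatin immunoprecipitation followed by sequencing was done on eGFP-tagged LIN-15B in 2 biological replicates of 1 group, mixed-sex animals of strain OP184, which carries the integrated transgene wgIs184 and the mutation tm4063 of unc-119 on chromosome III. No other genotype, stage or treatment was sampled, so comparisons are between genes and between replicates. The tag stands on a transgene and the animals were not dissected, so a strong signal in few cells and a weak one in many cannot be told apart.

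Nuclear pores are channels through the nuclear envelope, built from ring-shaped scaffold complexes and a central meshwork of phenylalanine-glycine (FG) repeats. Importins and exportins carry proteins and some RNAs through this meshwork, and the small GTPase Ran sets the direction by binding GTP inside the nucleus and hydrolysing it outside. LIN-15B is a THAP domain protein of the synMuv B group, known for repressing germline genes in somatic cells. Peak signals are printed as the authors deposited them, and their scale is unknown. A gene was scored by the summit, the highest point, of each peak that passed the irreproducible discovery rate (IDR) step. This step is meant to keep peaks that rank alike in both replicates. The list it left held the 3331 highest peaks of the pooled list, so a single peak in it can still rank unlike in the replicates. At npp-27, for example, the replicate ranks were 2585 and 5819. Summits were counted from 500 bp before to 200 bp after any annotated 5' end, called the promoter window here.

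The sequences below show the genome of the reference strain (RefSeq, WBcel235, the assembly of ce11) within 50 bp of the summit, 5' to 3' on the strand of the gene. They are shown for npp-3 and npp-18, nucleoporins with high signals, for the importin gene ima-3, for npp-24 and npp-16, the nucleoporins with a summit closest to a 5' end, and for a pair of nucleoporins whose windows hold searched motifs (npp-9 and npp-23, chosen after the matches were seen). The higher peaks of imb-1, npp-13, imb-3 and ima-2 are not shown as sequence. Capitals mark any match, on either strand, to the GAGA-type motif GAGAGA, the CG repeat motif GCGCGC, the E2F-type motif GCGGGA, the cell-cycle motif TTTGAA or the TATA box TATAAA, and all other bases are in lower case. On the strand printed, TCCCGC and TTCAAA are the reverse complements of the E2F-type and cell-cycle motifs. The npp-24 stretch is cut to 55 bases because the rest of its window is annotated exon.
npp-3, chrII:11874830-11874930, minus strand: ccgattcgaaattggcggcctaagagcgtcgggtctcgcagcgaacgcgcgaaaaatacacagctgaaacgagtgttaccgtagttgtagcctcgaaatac
npp-18, chrIII:13296657-13296757, plus strand: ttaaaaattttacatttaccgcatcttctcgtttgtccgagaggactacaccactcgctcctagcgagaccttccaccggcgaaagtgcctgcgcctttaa
ima-3, chrIV:7561910-7562010, minus strand: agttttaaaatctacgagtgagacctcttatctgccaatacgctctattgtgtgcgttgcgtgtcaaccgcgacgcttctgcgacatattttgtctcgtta
npp-24, chrII:5506037-5506091, plus strand: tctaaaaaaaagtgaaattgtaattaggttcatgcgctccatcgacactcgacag
npp-16, chrIII:11915797-11915897, plus strand: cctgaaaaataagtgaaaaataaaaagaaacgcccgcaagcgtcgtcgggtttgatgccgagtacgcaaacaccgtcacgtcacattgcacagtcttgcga
npp-9, chrIII:3404585-3404685, minus strand: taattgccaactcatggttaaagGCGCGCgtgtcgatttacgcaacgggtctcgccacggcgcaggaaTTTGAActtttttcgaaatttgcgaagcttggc
npp-23, chrIV:8869794-8869894, minus strand: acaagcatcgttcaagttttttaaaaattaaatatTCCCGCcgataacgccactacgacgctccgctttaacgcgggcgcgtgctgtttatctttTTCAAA

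Most of the members carried a LIN-15B peak. Of the 40, 30 (75.0%, exact 95% Clopper-Pearson interval 58.8 to 87.3) had an IDR summit in the promoter window, against 13.4% of all protein-coding genes. All 6 importins had one (interval 54.1 to 100), as did 20 of the 26 nucleoporins (76.9%, 56.4 to 91.0), 2 of the 3 exportins and 2 of the 5 Ran genes (40.0%, 5.27 to 85.3). The nucleoporin share was thus -23.1 points from the importin share, with intervals that overlap, and this difference was not tested. The intervals cover counting error over genes only. Each of the 30 genes had exactly 1 IDR peak in its window, and no member shared its peak with another member.

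**Figure D1:**
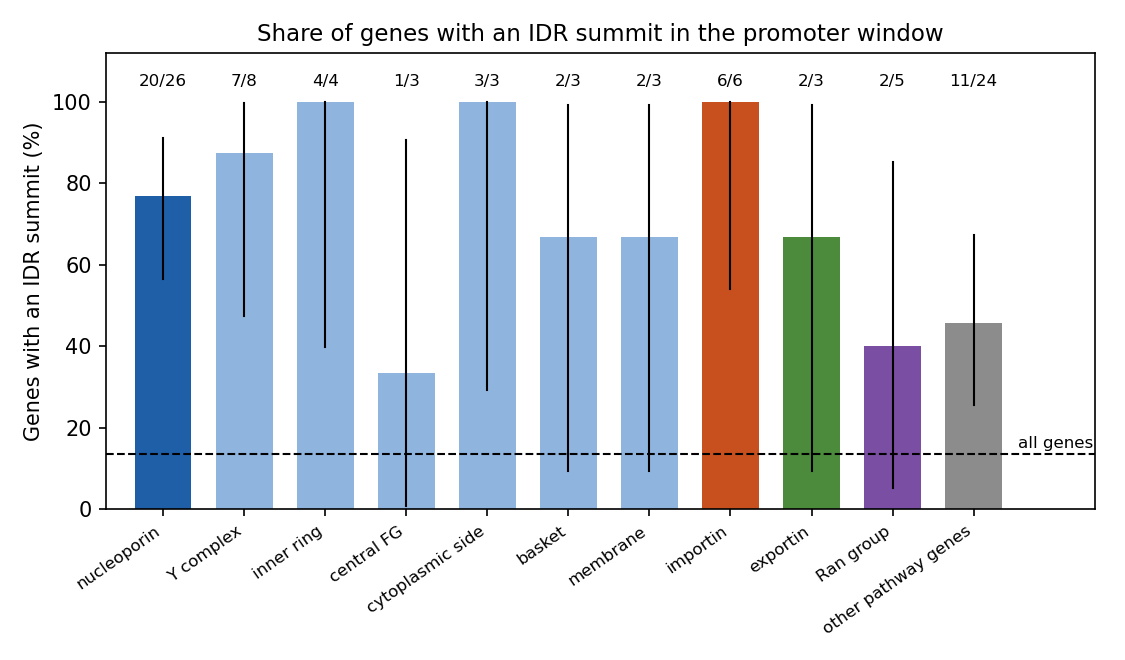
Share of genes with an IDR summit in the promoter window (%, y axis) for each class and for the structural subgroups of the nucleoporins (pale blue), with exact 95% intervals as lines and counts above. The dashed line marks the 13.4% of all protein-coding genes. Every class and subgroup lies above it, and the intervals of the central FG, basket, membrane, exportin and Ran groups include it. The intervals cover counting error over genes only and are no test against the line.

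Of the chromosomes that hold members, I and III had the highest shares of genes with a LIN-15B peak. On chromosome I, 605 of 2878 genes had an IDR summit, and on chromosome III 579 of 2640 (21.9%), and these held 13 and 8 of the members. Of the members there, 10 of 13 and 6 of 8 had a summit. On chromosomes II, IV and V, where 12.5%, 13.8% and 8.29% of all genes had one, the counts were 5 of 8, 7 of 8 and 2 of 3. No member lies on the X chromosome. The members' share was therefore above that of all genes on each of the 5 autosomes.

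Among the importins, the strongest peak stood at imb-1, which encodes importin beta, the carrier that docks most imported cargo to the pore. Its peak (chrI:4926410-4926726) had a signal of 563 in the pooled list, 237 in replicate 1 and 324 in replicate 2. It ranked 34 of 3331 in the IDR list. The same summit lies in the window of mfsd-13.1 on the opposite strand, so it cannot be assigned to imb-1 alone.

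The next was imb-3, which encodes a further importin of the beta family, with a pooled signal of 273 and replicate signals of 128 and 148. At imb-2, which encodes transportin, the pooled signal was 82.6 and those of replicates 1 and 2 were 28.9 and 49.3. The beta importins therefore spanned a wide range, with the same order in the pooled list and in both replicates. The importin alpha genes encode the adaptors that recognise classical nuclear localisation signals. Of these, ima-2 had a pooled signal of 179, with 82.3 in replicate 1 and 96.2 in replicate 2. At ima-3 (chrIV:7561893-7562030) the values were 98.2, 38.8 and 56.0. The lowest importin was ima-1, with 58.3, 34.0 and 23.3, and its peak is shared with dvc-1. Among the importins ima-1 alone had a lower signal in replicate 2 than in replicate 1.

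The nucleoporin peaks ranged from a signal of 343 (rank 113) down to 22.8 (rank 3301), at the edge of the IDR list. The scaffold of the inner ring, which lines the channel, had summits at all 4 of its genes. At npp-13, the homologue of Nup93, the pooled signal was 343 (rank 113), with 146 in replicate 1 and 197 in replicate 2. At npp-3, the homologue of Nup205, it was 307 (rank 147), with 142 and 166. This pair held the highest signals of all nucleoporins in the pooled list and in each replicate. The npp-3 peak (chrII:11874733-11875002), whose sequence is printed above, also lies in the window of top-2, a topoisomerase II gene on the opposite strand. The remaining inner ring genes were npp-8 (Nup155), with 135, and npp-19 (Nup35), with 63.5. The inner ring median was 221, against 66.1 for the 7 Y complex genes with a summit, a description of few genes that was not tested.

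The Y complex forms the outer rings of the pore, and 7 of its 8 genes had an IDR summit. The highest was npp-18 (Seh1), with a pooled signal of 177, 67.9 in replicate 1 and 108 in replicate 2 (chrIII:13296595-13296834). The next were npp-10, which encodes the precursor of Nup98 and Nup96 (81.0, peak shared with cyk-3), npp-20 (Sec13, 71.6) and npp-15 (Nup133, 66.1, shared with C29E4.13). The lowest were npp-6 (Nup160, 61.9), npp-2 (Nup85, 53.7) and npp-23 (Nup43, 51.3). Apart from npp-18, these values lie close together. The gene without a summit was npp-5 (Nup107). Its best pooled entry, with a signal of 21.9, ranked 3420 and so fell just below the end of the IDR list at 22.7.

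Outside the scaffolds, the groups were small and the shares uncertain. All 3 genes of the cytoplasmic side had a summit. These were npp-14 (Nup214, 131, shared with cel-1, an mRNA capping enzyme gene), npp-9 (Nup358, 92.6, shared with F59A2.5) and npp-24 (Nup88, 23). Of the nuclear basket, npp-7 (Nup153, 123, shared with unc-40, a netrin receptor gene) and npp-16 (Nup50, 37.1, shared with ndab-1) had one and npp-21 (Tpr) had none. Of the membrane nucleoporins, npp-22 (NDC1, 118) and npp-25 (TMEM33, 52.8, shared with the mitochondrial ribosomal protein gene mrps-10) had one and npp-12 (gp210) had none. The central FG nucleoporins form the transport meshwork, and only 1 of their 3 genes had a summit. This was npp-1 (Nup54), with 63.1 in the pooled list, 25.9 in replicate 1 and 37.4 in replicate 2. Of the pair npp-26 and npp-27, placed in no subgroup, npp-27 had a summit with a signal of 22.8.

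The FG genes without a summit were low in every list. At npp-11 (Nup62) the best pooled entry had a signal of 9.13 and replicate 2 gave 5.07, while replicate 1 had no entry in the window. At npp-4 (Nup58) there was a single entry, of 2.15 in replicate 2, near the lowest value of that list (2.00). At npp-21 there was also a single entry, of 3.16 in replicate 1. No list had an entry in the window of npp-26, and the nearest IDR summit lay at -14646 bp. For npp-4, npp-21 and npp-26 the pooled list held no entry in the window.

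**Figure D2:**
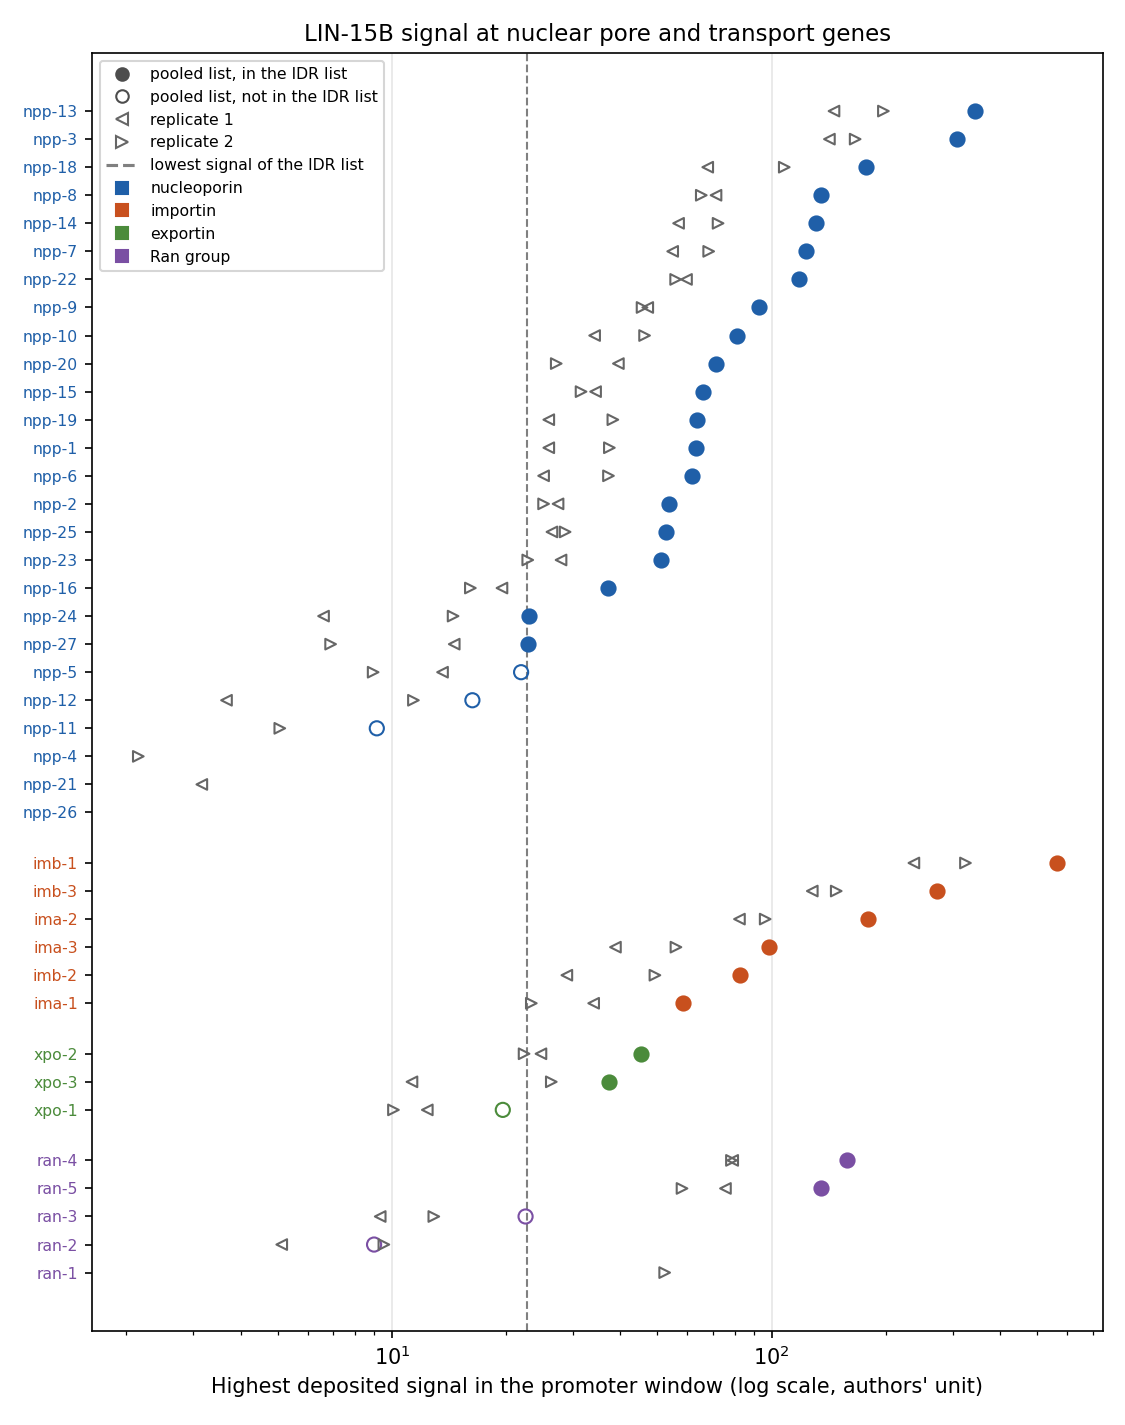
Highest deposited signal in the promoter window of each member (x axis, log scale, authors' unit), by class (colour), with circles for the pooled list (filled where the peak is in the IDR list) and triangles for the replicates. The dashed line marks the lowest IDR signal, 22.7; imb-1 stands highest at 563, npp-24 and npp-27 lie on the line, and npp-26 has no entry.

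Of the exportins matched by the rule, 2 of 3 had a summit, and of the Ran genes 2 of 5. Of the exportins, xpo-2, the homologue of CAS, which returns importin alpha to the cytoplasm, had a signal of 45.2 (shared with nol-14). At xpo-3, the tRNA exportin, it was 37.4 (shared with C49H3.3). The main protein exportin, xpo-1, had no IDR summit in the window. Both of these called exportins ranked below all 6 importins, at 1931 and 2254 against 34 to 1504. This order depends on the naming rule. The exportin gene xpo-7, which falls outside it by its Ensembl symbol C35A5.8, had an IDR summit at rank 1238, above ima-1. In the Ran system, the summits were at ran-4 (158), which encodes NTF2, the carrier of Ran itself, and at ran-5 (135), a Ran-binding protein gene whose summit lies in a coding exon of its neighbour R12C12.6. The genes for Ran (ran-1), its GTPase-activating protein (ran-2) and its exchange factor (ran-3) had none.

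Some of the members without a summit had an IDR summit further upstream or an entry close to the end of the IDR list. At ran-1 an IDR summit with a signal of 86.7 lay at -510 bp, just outside the window and inside that of dkc-1, the dyskerin gene on the opposite strand. In replicate 2 the summit there fell inside the ran-1 window, at -487 bp, with a signal of 52.3. At npp-12 an IDR summit of 210 lay at -668 bp, in the window of T23H2.3, and at xpo-1 one of 127 lay at -837 bp, in the window of uvs-1. These are opposite-strand neighbours. The best pooled entries inside the windows of npp-12 and xpo-1 were only 16.3 and 19.6. With the window extended to 1000 bp upstream, ran-1, npp-12 and xpo-1 were called and no other member was added. At ran-3 the best pooled entry in the window had a signal of 22.5 and a rank of 3353, just past the end of the IDR list. The gene ran-2 starts 479 bp behind npp-15 on the same strand. Its best pooled entry had a signal of 8.98, whereas npp-15 had an IDR peak of 66.1. Whether the arrangement bears on this was not tested. Of the 10 members with a same-strand neighbour within 1000 bp upstream, 7 had a summit, among them npp-22, 67 bp behind spe-42 (118).

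The importin summits lay further from the 5' end than most nucleoporin summits. The median position was -275 bp for the 6 importins and -191 bp for the 20 nucleoporins, against -176 bp for all genes with an IDR summit. The importin summits lay between -316 and -255 bp, except that of imb-1 at -95 bp. The nucleoporin summits ran from -477 bp at npp-7 to -5 bp at npp-24, and all 30 summits of the members were upstream of the nearest annotated 5' end. With a window of 200 bp on each side, 11 of 26 nucleoporins (42.3%) and 1 of 6 importins (16.7%) kept a summit, against 7.59% of all genes, so the order of these classes turned round. All members together then had 12 summits, 30.0% of the 40. Many C. elegans transcripts are trans-spliced, which removes their first bases, and transcription may then begin upstream of the annotated end. Whether this bears on the positions of these summits, or on the classes, was not tested.

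**Figure D3:**
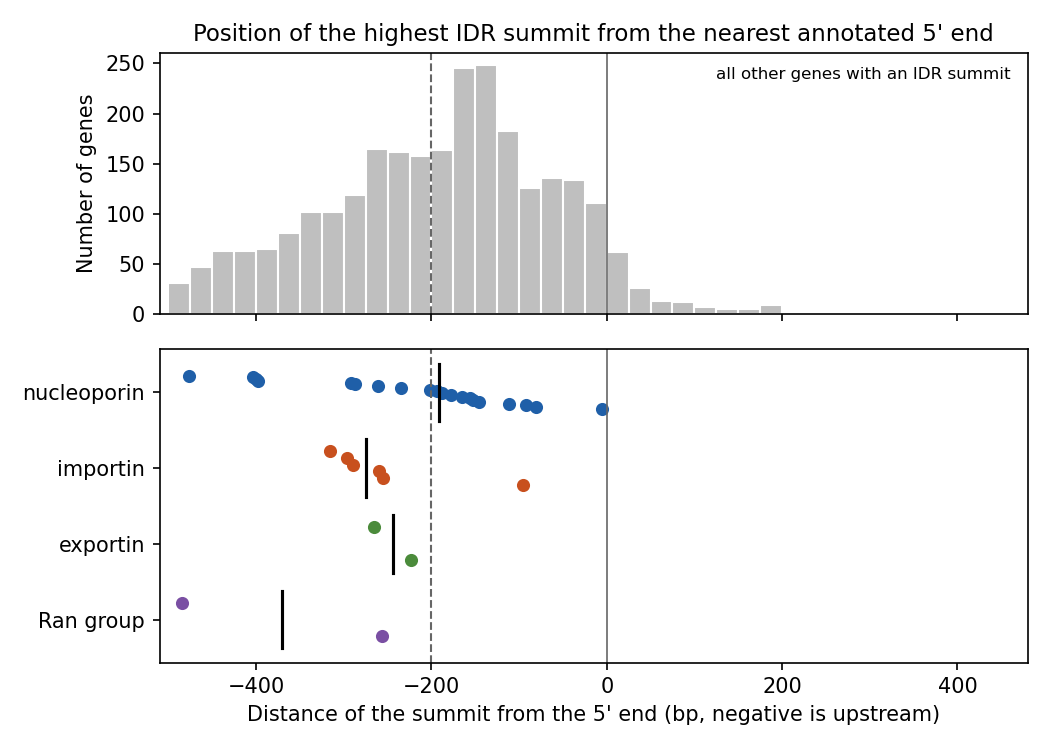
Position of the highest IDR summit from the nearest annotated 5' end (x axis, bp, negative is upstream), as the number of all other genes (top, bins of equal width) and for each member with a summit (bottom, points, with the class median as a bar). The dashed line marks 200 bp upstream, and 5 of the 6 importin points and 9 of the 20 nucleoporin points lie to its left.

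Both peaks at the edge of the IDR list lay inside their genes. The summits of npp-24 (rank 3285) and npp-27 (rank 3301) were in introns of these genes, near 5' ends of shorter transcripts. When only the most upstream 5' end of each gene was used, these 2 were lost and the other 28 kept their summits. Of the 30 summits, 24 were intergenic. The rest lay, besides these introns and the exon of R12C12.6, in an intron of spd-5 (npp-6), in the 3' UTR of spe-42 (npp-22) and in an exon of the non-coding gene C49H3.14 (xpo-3).

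Members of every upstream arrangement had summits. An opposite-strand neighbour within 1000 bp upstream was more common among the members, at 20 of 40, than among all genes, at 3716 of 19973. Of the 20 members with an opposite-strand gene starting within 1000 bp upstream, 15 (75.0%) had a summit, against 37.1% of all genes so arranged. Of the 10 with a same-strand neighbour within that distance, 7 had one (70.0% against 9.05%), and of the 10 with more room upstream 8 did (80.0% against 7.41%). A summit lay in the window of a second gene for 13 of the 30 members (43.3%, against 46.2% of all genes with a summit). In all 13 cases that gene was on the opposite strand. Counting only summits in the window of a single gene left 17 members (42.5%, against 7.27% of all genes), which were 12 nucleoporins, 4 importins and ran-4.

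Nearly the same members were called from each replicate alone. Among the 3331 highest entries of each replicate, 31 members had a summit in replicate 1 (77.5%, against 13% of all genes) and 31 in replicate 2 (against 13.3%). Of these, 28 were shared. Replicate 1 missed npp-24 and replicate 2 missed npp-27, while npp-5 and xpo-1 were added by replicate 1 and ran-1 and ran-3 by replicate 2. The summits of each replicate lay close to the IDR summit, which comes from the pooled list and so is not independent of them. Their median distance from the IDR summit was 6 bp in replicate 1 and 4.5 bp in replicate 2, with largest values of 33 and 31 bp. The replicate summits can fall on opposite sides of it, as at npp-25 (-27 and 29 bp). For the 30 members the median log2 ratio of replicate 2 to replicate 1 was 0.22 with an SD of 0.50 across genes, against 0.26 and 0.55 for all genes with a summit. The signal was higher in replicate 2 at 17 members and lower at 13. It differed by more than 1 log2 unit at 3, namely xpo-3 (1.22), npp-24 (1.13) and npp-27 (-1.08), which were among the lowest peaks. Depth is not given in the files, so an offset between the replicates cannot be read as a change. The pooled signal was close to the sum of the replicate signals (median ratio 1.00) and is no further measurement.

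**Figure D4:**
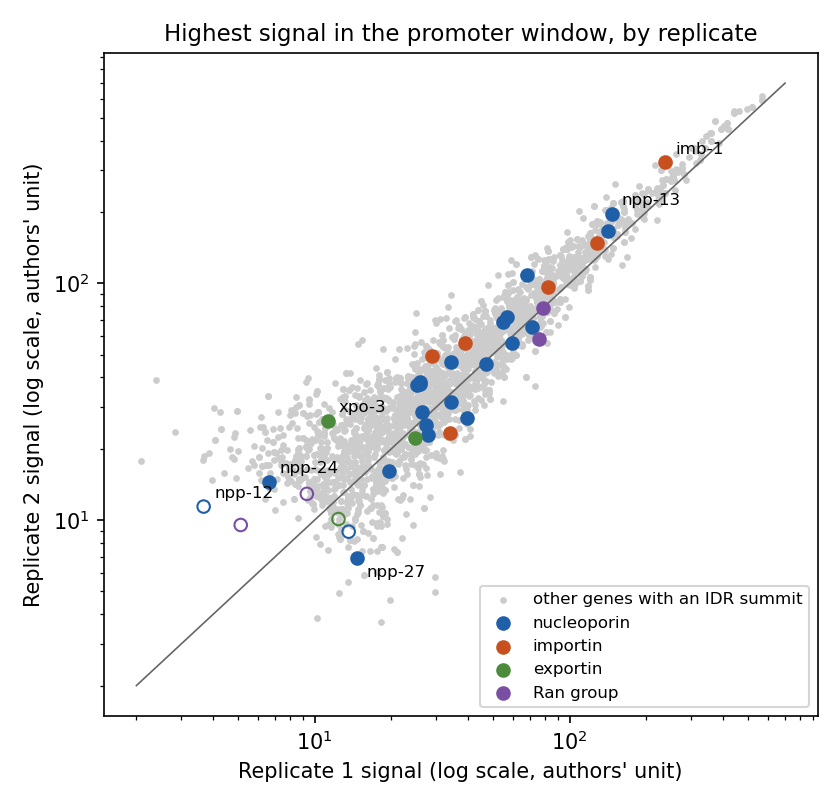
Highest signal in the promoter window in replicate 1 (x axis) and replicate 2 (y axis), both on log scales in the authors' unit, for members by class (filled where the gene has an IDR summit) and for all other genes with an IDR summit (grey), with the line of equal values. Most members lie near the line; xpo-3 and npp-24 stand above it, npp-27 below it, and npp-12, with no IDR summit, at 3.67 and 11.4.

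The members' peaks stood somewhat higher in the IDR list than those of all genes with a summit, a difference that was not tested. Of the 30, 12 (40.0%) were among the 666 highest of the 3331 IDR peaks and 23 (76.7%) among the 1665 highest, against 30.5% and 63.5% of all genes with a summit. The median signal was 81.8, against 70.5 for all genes with a summit, values that describe only genes already called. In the pooled list, which includes background, 36 of the 40 members had an entry in the window, against 36.8% of all genes.

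The members' summits were rich in G and C, like other LIN-15B summits. The GC content within 50 bp was 45.8% ± 5.92 (SD, 30 windows), against 46.4% ± 7.15 at all 2098 IDR summits in promoter windows and 35.2% ± 7.79 at points 300 bp upstream of the members' summits. The windows ran from 31.7% at npp-25 to 58.4% at npp-8. The motif TTTGAA, the core of the cell-cycle homology region, was found at 12 of 30 members' summits (40.0%), against 22.4% of all these summits, 6 of 30 upstream points and 29.8% of windows centred 250 bp upstream of all 5' ends. It was present at imb-1, imb-2, imb-3 and npp-13, and at npp-9 and npp-23 as printed above. The others were npp-2, npp-8, npp-15, npp-19, npp-22 and xpo-2. It was absent at ima-1, ima-2 and ima-3. The motif GCGGGA, a part of E2F sites, was found at 4 (13.3% against 7.82% of all these summits), which were npp-13, imb-3, npp-22 and npp-23. GAGAGA was found at 3 of 30 (against 20.7%), which were ran-4, npp-24 and npp-27, and GCGCGC at npp-9 and npp-22 (6.67%, against 251 of 2098). TATAAA was found at 0 of 30, which allows a share of up to 10%, against 4.24% of all these summits. In windows centred 250 bp upstream of all 5' ends, GCGGGA was found in 2.29%, GAGAGA in 6.49%, GCGCGC in 1.27% and TATAAA in 2598 of 19973. The sequences printed for npp-3, npp-18, ima-3 and npp-16 hold none of the 5 motifs, and the GAGAGA of npp-24 lies outside the bases printed. These counts describe the letters in the windows and were not tested.

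Related genes outside the naming rule were also scored, as counts that were not tested. Of 24 genes of the nuclear envelope, mRNA export and SUMO modification, 11 (45.8%, 25.6 to 67.2) had an IDR summit, against 13.4% of all protein-coding genes. Among them were mel-28, which encodes the ELYS protein that starts pore assembly on chromatin (29.7), and the genes of the chromatin-binding envelope proteins lem-2 (150), baf-1 (108) and emr-1 (107). The lamin gene lmn-1 had none. Of the mRNA export genes, summits stood at hel-1 (189), aly-2 (178, shared with rpb-12), nxf-1 (58.6, shared with C15H11.11), nxt-1 (57.7), ddx-19 (44.3, shared with T07D4.5) and aly-3 (26.9), and none at nxf-2 or aly-1. The SUMO-conjugating enzyme gene ubc-9 had one (93.1), while smo-1 and ulp-1 had none. The genes that bridge the envelope to the cytoskeleton (unc-84, unc-83, sun-1, zyg-12 and anc-1) had none, nor had vrk-1, cnep-1 or lpin-1. The naming of genes affects the list in a further way. The nucleoporin gene rae-1, and C35A5.8, named xpo-7 by RefSeq, fall outside the rule by their Ensembl symbols. Both had summits, with signals of 229 and 69.5.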

How the data were processed

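Per the deposited text records, the authors called peaks on the alignment of each replicate and on both pooled, with a further file each, and thresholded them by IDR. The caller, the aligner and the IDR threshold were not given in the sources used here. Signals are the authors' deposited values. The deposited −log10 q-value reached its ceiling of 3.96 in all 3331 IDR peaks and was used only for 1 alternative list. The ce11 lists held 30000 pooled, 24760 replicate 1 and 27552 replicate 2 entries, deposited as peaks and background. Depth is unknown. The IDR peaks were the highest of the pooled list, and 64.6% were 310 bp wide. The ce10 lists were not used here.

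Summits (column 2 plus column 10) were placed in windows of Ensembl release 115 (WBcel235, the assembly of ce11), with 1-based positions. Overlapping genes can share a peak. The members and lists were chosen with earlier results of these data known, so no set test or p-value is given. The rule for named genes took all members, the genes sharing their peaks and the called genes of the related list. The uncalled genes of that list, rae-1, C35A5.8 and the genes beside summits outside a member's window were named after their values were seen. No sequence from chromosome I is shown, which leaves out imb-1, npp-13, imb-3, ima-2 and ran-4. Among the other members, the rule took the 3 highest signals, the highest importin and the 2 nucleoporins closest to a 5' end. It also took ran-5, whose summit lies in a coding exon and is not printed. The nucleoporin subgroups followed textbook positions in the pore. The scoring code was tested on simulated data. Intervals came from scipy 1.17.1, figures from matplotlib 3.10.9, and the rest from Python 3.11.15 with numpy 2.4.6.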

Additional observations from a re-analysis of the deposited data

How the results depend on the processing

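Only the window and the sharing of peaks moved the counts of genes by a large factor. With 200 bp on each side of the 5' end, 12 members, 11 nucleoporins, 1 importin and 4 related genes had a summit, the difference of nucleoporins from importins was 25.6 points in place of -23.1, the median best signal was 0 (none listed counted as 0) in place of 62.5 and the median position was -150 bp. With summits in the window of 1 gene only, 17 members (42.5%) and 12 nucleoporins remained called, while the share of all genes was 7.27%. The members' median best signal was then 12.7 and their median position -202 bp. The difference between the classes was -19.2 points with 1000 bp upstream, -42.3 in the 1665 highest peaks, -15.4 with the 4585 pooled entries at the highest q-value and -30.8 with the most upstream 5' end. With 1000 bp upstream the median best signal was 68.9. With each replicate's list alone the difference ran from -26.9 to -23.1 points, the median best signal from 27.7 to 34.3 and the members called were 31 in both.

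For the motifs, the members' share minus that of all IDR summits in promoter windows was -10.7 points for GAGAGA, -5.30 for GCGCGC and -4.24 for TATAAA. With 100 bp to each side of the summit it was -19.8 for GAGAGA and 1.18 for TATAAA. Against points 300 bp upstream of the members' summits it was 6.67 for GAGAGA, 6.67 for GCGCGC and -10 for TATAAA, and against windows 250 bp upstream of all 5' ends, chosen after seeing the data, 3.51, 5.39 and -13. For GCGGGA the difference was 5.52 points against all IDR summits in promoter windows, 14.9 with 100 bp to each side, 13.3 against the upstream points and 11 against all 5' ends. For TTTGAA these values were 17.6, 17.3, 20 and 10.2. Adding rae-1 and xpo-7, also chosen after seeing the data, gave 32 of 42. No paired analysis was possible because the series has 1 group. The cause of these shifts was not tested.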
